A study of Mus musculus with 7 samples.

Results

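The genes described here handle glutamate, the main excitatory transmitter of the brain, and glutamine, the form in which it is recycled. They are 9 of 18278 genes named by a single symbol in the series: 4 plasma membrane glutamate transporters (Slc1a2, Slc1a3, Slc1a1 and Slc1a6), the related neutral amino acid exchanger Slc1a4, both vesicular transporters Slc17a7 and Slc17a6, glutamine synthetase (Glul) and glutamate dehydrogenase (Glud1). Every probe set whose only gene symbol in the platform annotation was 1 of these names was taken, whatever its signal. This gave 25 sense probe sets, 17 on the 430A array and 8 on the 430B array, and 1 reverse probe set, that of Slc1a3 on U74B. A further probe set carried Slc1a2 together with a second symbol and was left out.

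The study read total RNA of mouse brain and of mouse kidney on 7 Affymetrix arrays. Sense transcripts of brain were measured on 430A and 430B, and those of kidney on 430 2.0, which carries the probe sets of both. Antisense transcripts were read in both tissues from reversely oriented probe sets of the early U74A and U74B arrays. Each array had 1 sample, made from 8 micrograms of RNA for brain and 6.75 for kidney, so there is no spread between replicates and no test, and precision is limited by the number of arrays. The labels used here give no strain, age or sex, nor how many animals an RNA came from.

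At an excitatory synapse, glutamate is packed into vesicles by the vesicular transporters, released, and then cleared from the cleft by sodium-coupled transporters, which sit mostly in the membrane of astrocytes. Astrocytes turn it into glutamine with glutamine synthetase and hand the glutamine back to neurons, where it becomes glutamate again. In kidney, the proximal tubule takes glutamate and glutamine back from the filtrate and forms ammonia from glutamine, with glutamate dehydrogenase in the mitochondria.

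Glial clearance and glutamine synthesis are mostly tasks of astrocytes in brain, and genes that encode them are shown first by the sequence around an annotated start. The windows below run from 250 bases before to 50 bases after the annotated start (RefSeq, GRCm38.p6) and are shown because Slc1a2 and Slc1a3 differed widely between the tissues and Glul did not. CG dinucleotides are in capitals. The windows lie at chr2:102706188-102706487 on the plus strand for Slc1a2, chr15:8710758-8711057 on the minus strand for Slc1a3 and chr1:153899679-153899978 on the plus strand for Glul.
Slc1a2: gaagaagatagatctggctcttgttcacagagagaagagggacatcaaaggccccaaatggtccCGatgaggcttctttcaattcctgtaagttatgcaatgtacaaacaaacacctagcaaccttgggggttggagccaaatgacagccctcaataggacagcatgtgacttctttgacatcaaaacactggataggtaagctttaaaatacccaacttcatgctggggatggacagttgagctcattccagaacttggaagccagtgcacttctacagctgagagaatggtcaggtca
Slc1a3: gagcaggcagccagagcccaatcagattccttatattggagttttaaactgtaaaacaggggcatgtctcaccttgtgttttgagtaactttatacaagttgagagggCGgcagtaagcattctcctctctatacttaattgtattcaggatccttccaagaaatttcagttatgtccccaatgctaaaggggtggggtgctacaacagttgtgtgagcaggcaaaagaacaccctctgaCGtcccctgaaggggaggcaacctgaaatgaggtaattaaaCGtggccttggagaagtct
Glul: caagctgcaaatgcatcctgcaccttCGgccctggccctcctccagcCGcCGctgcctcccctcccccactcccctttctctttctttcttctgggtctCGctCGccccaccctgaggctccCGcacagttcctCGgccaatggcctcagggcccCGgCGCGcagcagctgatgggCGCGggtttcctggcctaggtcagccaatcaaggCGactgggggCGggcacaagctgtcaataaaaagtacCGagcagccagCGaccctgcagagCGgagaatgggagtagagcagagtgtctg
The Slc1a2 window held 1 CG and that of Slc1a3 held 3, against 17 in that of Glul and a median of 7 over all 32851 windows of this length. All 9 genes matched, with 10 windows, since Slc17a6 has 2. Those of Slc1a1 and Slc1a6 held 32 CG each, that of Slc1a4 held 21, that of Slc17a7 held 13, those of Slc17a6 held 8 and 3, and that of Glud1 held 51. On either strand, CCAAT was found 3 times in the Slc1a3 window and 2 times each in those of Glul and Slc1a4, and in 37.4% of all windows. TATAAA was found in the Slc1a3 window and in 13.6% of all windows. GGGCGG, which includes a CG, was found in 8 of the 10 windows, those of Slc1a2 and the second of Slc17a6 being without it, and in 35.7% of all. These are matches of letters and no measure of binding. A gene can have more than 1 annotated start, as Slc17a6 does, and which start is in use in either tissue was not tested. Whether CG content goes with the ratios was not tested either.

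Brain and kidney signals come from arrays of different scale, so each brain array was centred on the kidney array before a ratio was taken. Signals under a floor, set at 186.4 (430A) and 28.6 (430B) on the scale of the kidney array, were raised to it; a fold against a tissue under the floor is a lower bound on the centred scale, and a gene was counted as higher in a tissue from 2-fold on. Signals are printed as deposited, so a fold taken after centring can exceed the quotient of the printed pair. Bounds of different genes were not ranked, other than in taking medians. Array type and tissue cannot be told apart. The only repeat reading is that of 98 bright probe sets on both brain arrays, whose log2 ratios between the arrays had an SD of 0.25. This SD is a spread around the mean and leaves out the offset between the arrays. That offset differed from the one removed by centring. With 430B brought to the scale of 430A by the 100 shared probe sets, the median log2 ratio over all genes was 0.29 in place of -0.08. The repeat reading covers neither animals nor RNA preparations. In whole tissue, fewer cells of a type and less RNA per cell cannot be told apart.

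Of the 9 genes, 5 were 2-fold or more higher in brain (Slc1a2, Slc1a3, Slc1a6, Slc17a7 and Slc17a6), no gene was higher in kidney, and Slc1a1, Slc1a4, Glul and Glud1 were within 2-fold, each gene being read by its probe set of highest rank. Of all 12913 genes above the floor, 18.2% were counted as higher in brain and 26.4% as higher in kidney. With signals as deposited the count was 4 in brain and 2 in kidney, with Slc1a1 and Glud1 on the kidney side. The median log2 ratio of the 9 genes was 1.08, against -0.08 over all genes above the floor. This median is the value of Slc1a6, a lower bound set by the floor, and is no typical ratio of the set. Of the 25 probe sets, 15 passed the floor only in brain, 7 in both tissues and 3 in neither, and those that passed in brain only could not have favoured kidney. The floor of each pair was the brain median after centring, and on 430A it was stricter for kidney. There, 1456003_a_at of Slc1a4 passed in brain at percentile 52.0 and failed in kidney at percentile 60.2. A signal under the floor in kidney is therefore no sign of absence. On 430A, 19.8% of all probe sets above the floor were counted as higher in brain and 21.1% as higher in kidney, and on 430B it was 18.7% for brain and 23.8% for kidney.

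**Figure D1:**
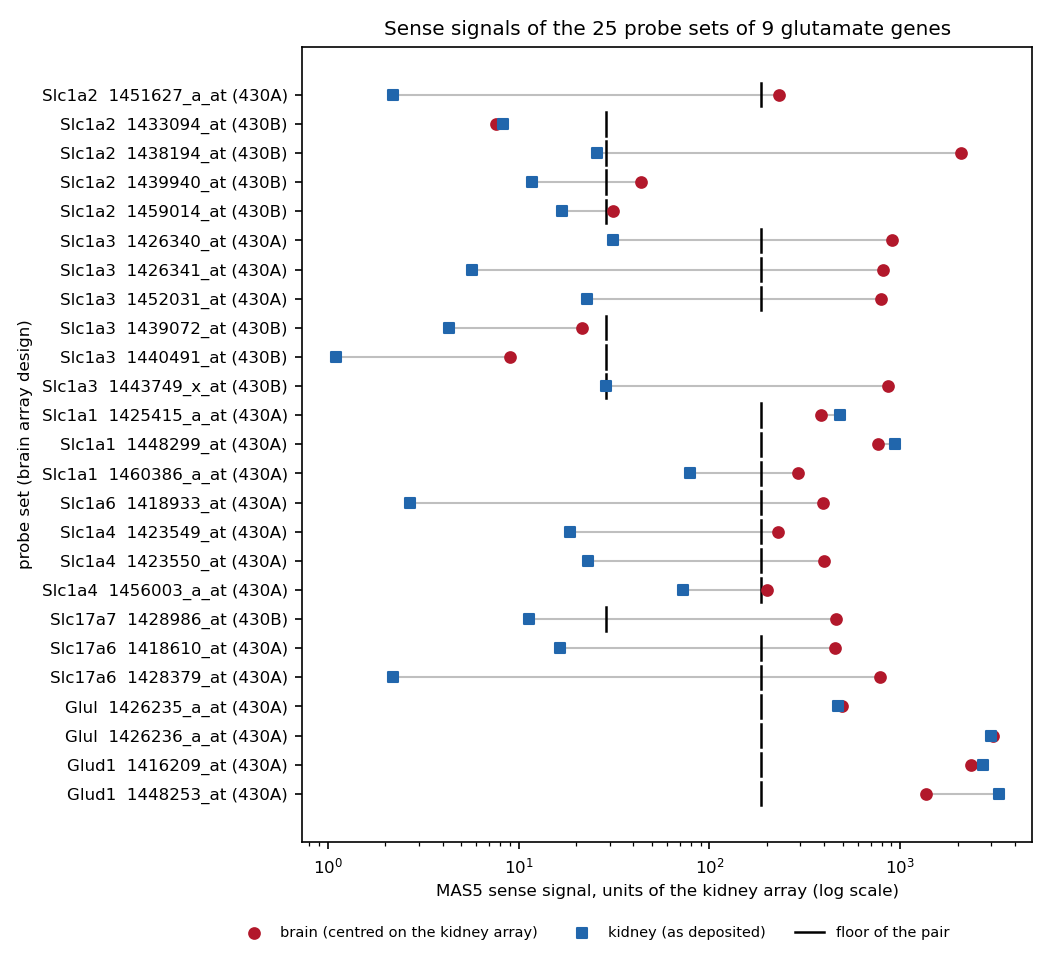
MAS5 sense signals of the 25 probe sets (rows, grouped by gene) in brain, centred on the kidney array, and in kidney, on a log axis in units of the kidney array, with the floor of each pair as a black tick. Kidney signals of the glial and vesicular transporters lie under the floor or, for 1 Slc1a3 probe set, on it, while the points of Glul lie on top of each other.

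Slc1a2, the main glutamate transporter of forebrain astrocytes, was higher in brain by its brightest probe set. This, 1438194_at, read 8880.8 in brain and 25.8 in kidney, a difference of at least 73.1-fold, and ranked at percentile 99.98 of the 430B array. The other 4 probe sets of the gene read far less in brain. On 430A, 1451627_a_at read 129.3 in brain and 2.2 in kidney, a ratio that the floor held to at least 1.24-fold. On 430B, 1439940_at read 185.8 in brain and 11.7 in kidney, 1459014_at read 133.2 in brain against 16.8 in kidney, and 1433094_at read 32.4 in brain against 8.3 in kidney, the last below the floor in both tissues. All 5 ranked higher in brain than in kidney, but only 1 of the 4 above the floor passed 2-fold, so the median of its probe sets, 0.46 on the log2 scale, did not. The 3 genes of the same design with the closest pair of signals after flooring were Syt1, Rph3a and Kif5c. Syt1, the calcium sensor of transmitter release, read 8559.8 in brain and 27.4 in kidney, a distance of 0.05 on the log2 scale. Rph3a, a protein of synaptic vesicles, and the kinesin Kif5c lay at 0.86 each. In kidney, Slc1a2, Syt1 and Rph3a lay under the floor and Kif5c (28.9 in kidney) just above it. These distances therefore compare brain signals almost alone and cannot show likeness in kidney.

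Slc1a3, the transporter of cerebellar Bergmann glia and of astrocytes throughout the brain, was higher in brain by every probe set above the floor. On 430A, 1426340_at read 504.9 in brain and 31.2 in kidney, 1426341_at read 451.3 in brain against 5.7 in kidney, and 1452031_at read 441.3 in brain against 22.9 in kidney. These were at least 4.85-fold, 4.34-fold and 4.24-fold higher in brain. On 430B, 1443749_x_at read 3678.8 in brain and 28.8 in kidney, 30.1-fold higher, with the kidney signal at the floor. The mark _x_at stands for probes that may also match other transcripts, and without that probe set the log2 ratio of the gene was 2.28 in place of 4.91. The remaining pair, 1439072_at (91.7 in brain and 4.3 in kidney) and 1440491_at (38.3 in brain, 1.1 in kidney), lay below the floor in both tissues. Kidney lay under the floor at all 3 probe sets of 430A, so their bounds share 1 floor value; without centring or floor their log2 ratios were 4.02, 6.31 and 4.27.

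Slc1a1, the transporter of neuronal cell bodies and of the proximal tubule brush border, was above the floor in both tissues by 1448299_at and 1425415_a_at. By 1460386_a_at it was under the floor in kidney. Its probe set 1448299_at read 427.8 in brain and 934.4 in kidney, and 1425415_a_at read 215.3 in brain against 485.8 in kidney. After centring these gave log2 ratios of -0.29 and -0.33, little more than the SD of the repeat reading. The third, 1460386_a_at, read 162.4 in brain and 78.9 in kidney (0.64, a bound), so the probe sets did not share a direction. With signals as deposited, the log2 ratio of the gene was -1.13, which counted as higher in kidney. The genes closest to it in both tissues were Gng10, Sbf2 and Ube2z, at distances of 0.01 to 0.05 on the log2 scale.

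Slc1a6, a transporter of cerebellar Purkinje cells, had 1 probe set, which read 220.3 in brain and 2.7 in kidney. It was at least 2.12-fold higher in brain, a bound set by the floor, and fell under 2-fold with signals as deposited (log2 ratio 0.86). Of 5 genes listed for Purkinje cells and cerebellum, 4 were higher in brain, from Pcp2 (934.2 in brain and 5 in kidney) to Pvalb (1397.1 in brain and 1221.2 in kidney, log2 ratio 1.04). The other, Calb1, read 1747.4 in brain and 4689.5 in kidney and was within 2-fold (log2 ratio -0.58). Slc1a4, which exchanges alanine, serine and cysteine, was low in both tissues. Its 3 probe sets read 222.5, 128.2 and 111.6 in brain, against 23.2, 18.5 and 72.6 in kidney. Only the first, 1423550_at, passed 2-fold, at least 2.14-fold higher in brain, while the probe set of highest rank gave a log2 ratio of 0.10.

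Both vesicular transporters were higher in brain by every probe set. Slc17a7, which loads vesicles of cortical, hippocampal and cerebellar granule neurons, read 1959.9 in brain and 11.3 in kidney, a difference of at least 16.1-fold. Slc17a6, used more in thalamus and brain stem, read 252.6 in brain and 16.5 in kidney by 1418610_at, and 437.1 in brain against 2.2 in kidney by 1428379_at. These were at least 2.43-fold and 4.20-fold higher in brain. With the floor at the 75th percentile, the log2 ratios of Slc1a2, Slc1a3 and Slc17a7 were 5.07, 3.80 and 2.89, while Slc1a6, Slc17a6 and Slc1a4 had no signal above the floor in either tissue.

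**Figure D2:**
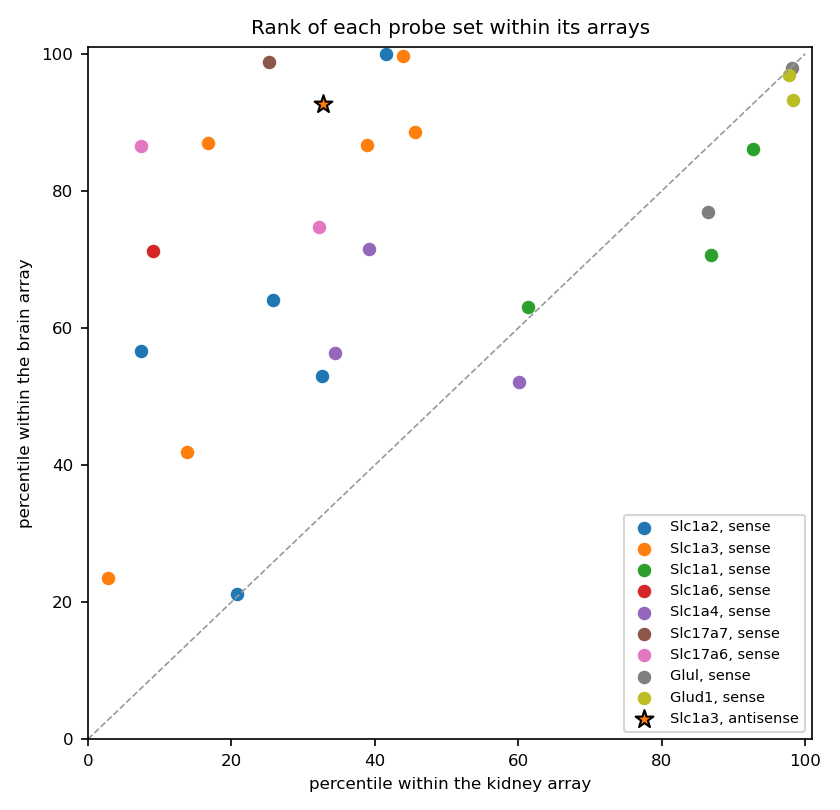
Percentile of each probe set within the brain array (vertical axis) and within the whole kidney array (horizontal axis), by gene; the star is the reverse Slc1a3 probe set, ranked among reverse probe sets of U74B, and the dashed line marks equal rank. Glud1 and 1 probe set of Glul rank at percentile 93.2 or higher in both tissues, and the brightest probe sets of Slc1a2, Slc1a3 and Slc17a7 lie far above the line, while 1 dim Slc1a2 probe set lies on it (percentile 21.2 in brain and 20.8 in kidney).

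The enzymes of the cycle were high in both tissues. Glul read 1702.7 in brain and 2999.5 in kidney by 1426236_a_at, at percentile 97.9 of the brain array and 98.1 of the kidney array, and 275.5 in brain and 470.2 in kidney by 1426235_a_at. After centring the log2 ratios were 0.02 and 0.07, smaller than the SD of the repeat reading. That closeness depended on the scaling. The log2 ratio of the gene was -0.82 with signals as deposited and 0.53 with quantile normalization, both within 2-fold. Glutamine synthetase is known mostly from astrocytes in brain and from the tubule in kidney. Which cells gave these signals was not tested. The genes nearest to Glul in both tissues were Mt2, a metallothionein (1687.4 in brain and 2937.5 in kidney), Hmgcs1, an enzyme of cholesterol synthesis, and Car2, a carbonic anhydrase.

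Glud1, the mitochondrial enzyme that links glutamate to the citrate cycle, read 1315.3 in brain and 2701.1 in kidney by 1416209_at, and 763.4 in brain and 3287.6 in kidney by 1448253_at. Both ranked at percentile 93.2 or higher in each tissue. The log2 ratios were -0.20 and -1.27, so the second was 2.40-fold higher in kidney and the first was within 2-fold; both probe sets are annotated with the same RefSeq transcript. With signals as deposited, the gene's log2 ratio was -1.04. Its nearest genes were Ddx17, Spin1 and Gnb2.

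**Figure D3:**
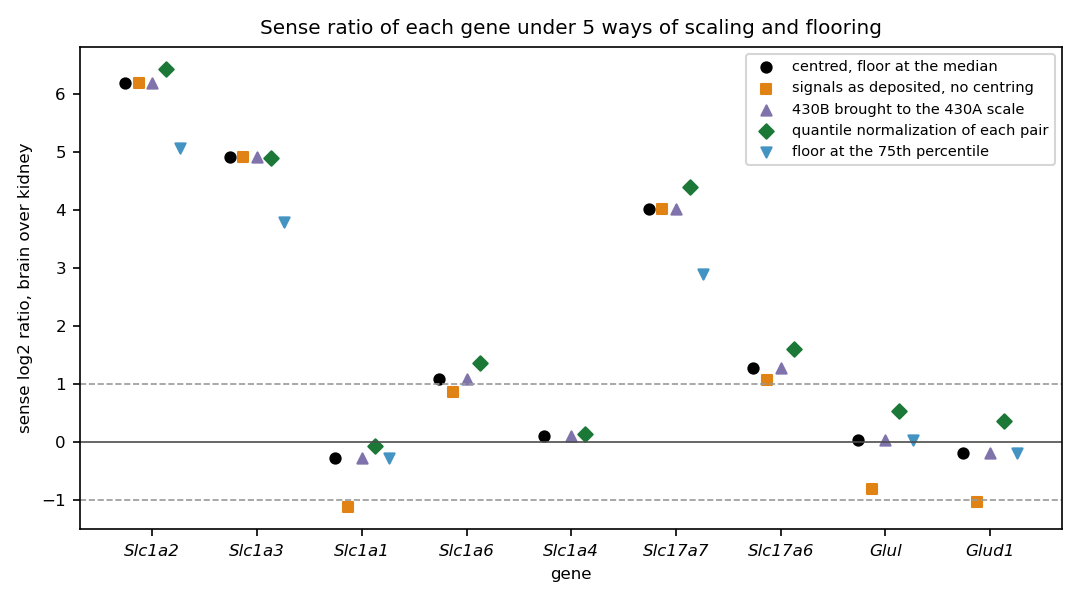
Sense log2 ratio of brain over kidney for each gene, read by its probe set of highest rank, under 5 ways of scaling and flooring; dashed lines mark 2-fold, and a missing point lies below the floor in both tissues. Slc1a2, Slc1a3 and Slc17a7 stay at 2.89 or more throughout, and Slc1a1 and Glud1 reach -1.13 and -1.04 with signals as deposited.

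The reverse probe set of Slc1a3, 110794_at, read 267.1 in brain and 22 in kidney. The antisense signal was at least 2.71-fold higher in brain against the U74B floor of 98.5. It ranked at percentile 92.7 of the reverse probe sets in brain and 32.8 in kidney, where it lay below the floor. Of the 983 reverse probe sets of U74B above the floor, 14.3% were counted as higher in brain and 6.41% as higher in kidney. That balance rests on signals used as deposited: over the genes of both U74 arrays, 200 were higher in brain and 47 in kidney, but 77 in brain and 108 in kidney after quantile normalization, where the antisense log2 ratio of Slc1a3 was 1.32. Sense and antisense signals of Slc1a3 were thus both higher in brain, on separate arrays. With the floor at the 90th percentile the antisense ratio was 0.33 on the log2 scale, under 2-fold. That the probe set reads the reverse strand rests on the mask of Affymetrix named in the labels, and carry-over of sense signal was not tested. The other 8 genes had no reverse probe set in the tables used here.

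The other genes of glutamate and glutamine handling were followed through a list of 48, of which 43 had a sense probe set and 41 were above the floor. Of these, 12 (29.3%) were higher in brain and 10 (24.4%) in kidney, against 18.2% (brain) and 26.4% (kidney) of all genes. Their median log2 ratio was -0.15, and that of all genes -0.08. The rest of the list is not analysed here.

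Genes of the inhibitory transmitter GABA, which is made from glutamate, were higher in brain for 4 of 6. The GABA transporter of astrocytes Slc6a11 read 1797.4 in brain against 4.7 in kidney (at least 14.8-fold), the decarboxylase Gad1 read 1022.9 in brain against 13.8 in kidney (at least 9.84-fold), the vesicular transporter Slc32a1 read 382.3 in brain against 13.4 in kidney (at least 3.68-fold) and Gad2 read 228.8 in brain against 22.6 in kidney (at least 2.20-fold). The GABA-degrading enzymes Abat and Aldh5a1 were within 2-fold, at 0.78 and 0.51 on the log2 scale. Both depended on the scaling: Aldh5a1, on 430B, counted as higher in brain with signals as deposited (2.60), with 430B on the scale of 430A (2.11) and with quantile normalization (1.35), and Abat with the last alone (1.04). Gad2 fell under 2-fold with signals as deposited (0.92). Mitochondrial glutamate carriers were also higher in brain, with Slc25a22 at 818.8 in brain against 105.3 in kidney (at least 7.87-fold) and Slc25a18 at 875.5 in brain against 15 in kidney (at least 7.21-fold). The aspartate-glutamate carrier Slc25a13 was higher in kidney, at 17.1 in brain against 492 in kidney (at least 2.64-fold), and its relative Slc25a12, on 430B, was within 2-fold at -0.56 on the log2 scale. Slc25a12 turned towards brain with signals as deposited (1.53) and with 430B on the scale of 430A (1.04), which both passed 2-fold, and with quantile normalization (0.53).

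Glutamine and neutral amino acid carriers were divided. Slc38a3, which moves glutamine out of astrocytes and across the basolateral side of the proximal tubule, read 439.2 in brain against 135 in kidney (at least 4.22-fold higher in brain after centring), and Slc7a5, a carrier of large neutral amino acids at the blood-brain barrier, read 260 in brain against 125.8 in kidney (at least 2.50-fold after centring). With signals as deposited the log2 ratios were 1.70 for Slc38a3 and 1.05 for Slc7a5, and with the floor at the 75th percentile both fell under 2-fold. In kidney, Slc6a19, the neutral amino acid transporter of the brush border, was 10.8-fold higher, at 255.1 in brain and 650.8 in kidney as deposited, Slc7a8, its basolateral counterpart, was 5.29-fold higher (118.6 in brain, 1124.2 in kidney) and Slc38a2 was 2.58-fold higher (449.5 in brain, 2075 in kidney). With the median of its probe sets, Slc38a2 was within 2-fold (log2 ratio -0.31). Slc38a1, the glutamine carrier of neurons, read 2367.5 in brain and 335 in kidney by a probe set marked _s_at. It was within 2-fold after centring (log2 ratio 0.74), and stayed there with other floors. It counted as higher in brain with signals as deposited (2.82), with quantile normalization (1.74) and with the median of its probe sets (1.185). It did so too without probe sets marked _x_at or _s_at (1.63), and reached 2.33 with 430B brought to the scale of 430A. On that scale the median over all genes was 0.29 rather than -0.08, and the calls over all genes were 3316 for brain and 1956 for kidney, in place of 2352 for brain and 3405 for kidney. There the fold of Slc6a19 shrank to a log2 ratio of -1.84.

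Among the transaminases, cytosolic Got1 was 6.82-fold higher in brain (1924.6 in brain and 505.6 in kidney), mitochondrial Got2 was within 2-fold (1670.4 in brain, 3494.9 in kidney), and Gpt was at least 2.06-fold higher in brain by a probe set marked _s_at and under 2-fold without it and with signals as deposited. Got2 counted as higher in kidney with signals as deposited (log2 ratio -1.07). Its log2 ratio was 0.30 with quantile normalization and 0.59 with the median of its probe sets. Kidney was higher for pyruvate carboxylase, Pcx (439.1 in brain and 3324.2 in kidney, 4.22-fold), and for the gluconeogenic Pck1 (70.2 in brain, 305.1 in kidney, at least 10.7-fold after centring). The log2 ratio of Pck1, -3.41 after centring, was -1.82 with 430B on the scale of 430A and -1.33 with signals as deposited. Kidney was also higher for Aldh4a1 and Aldh18a1, which link glutamate and proline (3.55-fold and 2.20-fold). Aldh18a1 was read by a probe set marked _x_at and turned to 0.40 on the log2 scale without such probe sets. Kidney was higher too for Gclm, a subunit of the first enzyme of glutathione synthesis (6.39-fold), and for Gfpt1, which uses glutamine to make hexosamines (6.57-fold). Gclm and Gfpt1 were within 2-fold with signals as deposited. With 430B on the scale of 430A, their log2 ratios were -1.08 and -1.12. Asns, which makes asparagine with glutamine as the donor, was 4.98-fold higher in brain (606.5 in brain and 218.2 in kidney), and Cad, an enzyme of pyrimidine synthesis, at least 2.18-fold after centring (226.3 in brain and 149 in kidney). Cad was within 2-fold with signals as deposited (log2 ratio 0.60).

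**Figure D4:**
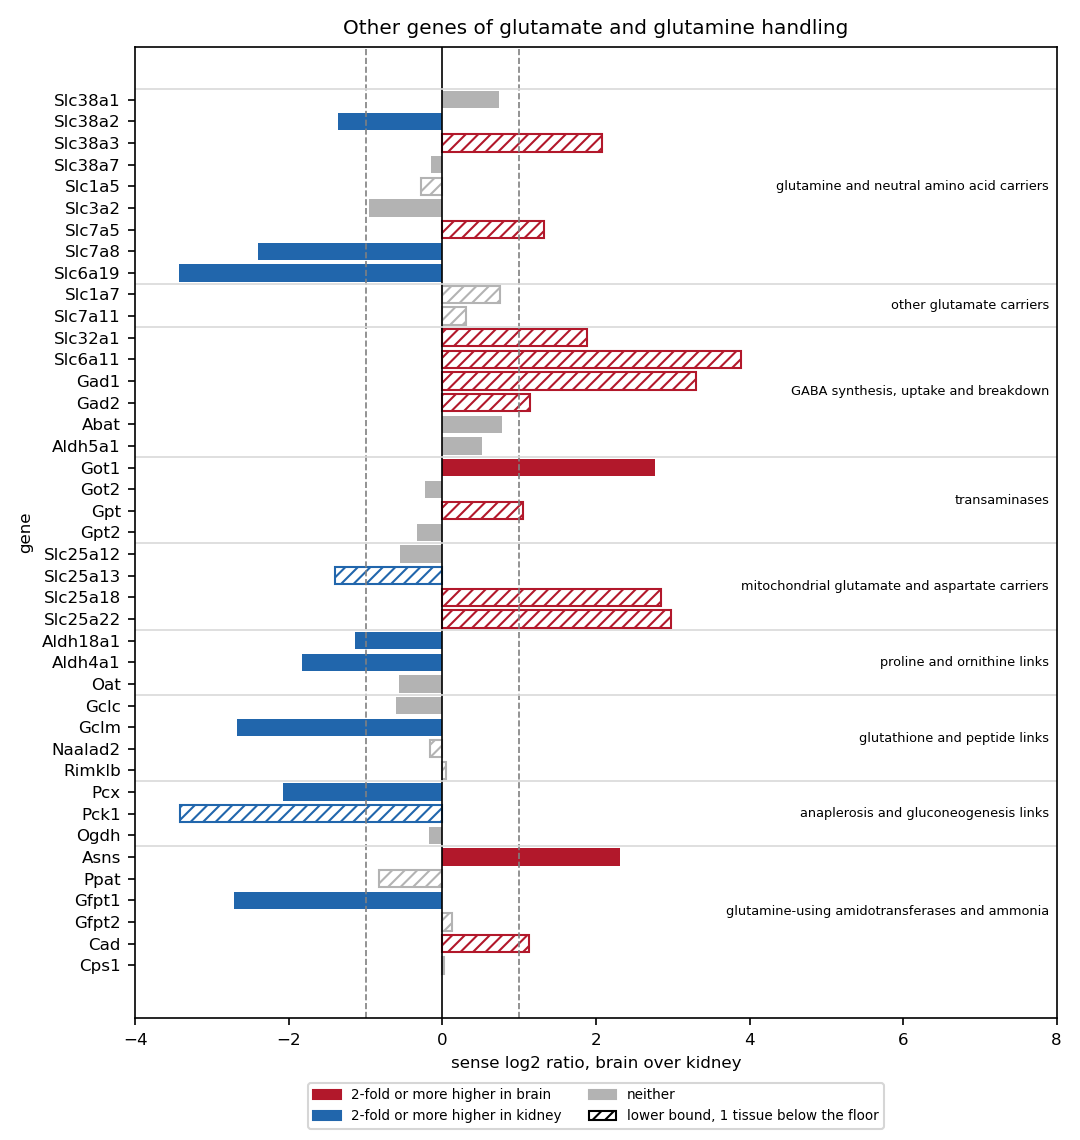
Sense log2 ratio of brain over kidney for the 41 listed genes above the floor, grouped by role, with red bars for genes 2-fold or more higher in brain, blue bars for genes 2-fold or more higher in kidney and hatched bars for lower bounds. GABA genes point to brain, and gluconeogenesis and proline genes that pass 2-fold point to kidney.

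Markers of the cell types of each tissue differed as well. Of the 10 listed for astrocytes, 7 were higher in brain and 1, Slc4a4, in kidney, with a summed signal of 19888 in brain and 5006 in kidney in units of the kidney array. All 9 neuronal genes were higher in brain, with summed signals of 26098 in brain and 186.3 in kidney. Of the 8 listed for the proximal tubule, 7 were higher in kidney, with summed signals of 1067 in brain and 31774 in kidney; the exception was Lrp2, as read by its probe set of highest rank. Of the markers of other cells, the pituitary hormones Gh and Prl read 5129.1 and 4519.1 in brain, against 33.8 and 1.6 in kidney, with summed signals of 17288 in brain and 35.4 in kidney. The fat marker Fabp4 read 24 in brain and 4989.2 in kidney. None of these markers was listed at 0. The astrocyte markers Gfap and S100b read 941.4 and 1060.4 in brain, against 27.4 and 29.3 in kidney. The part that the makeup of the tissues has in the ratios of the transporters was not tested.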

How the data were processed

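The deposited values are an intensity, the MAS5 signal named in the submitters' processing notes, and are not on a log scale; for the U74 arrays, per the labels, only probe sets marked reverse in a mask from Affymetrix were kept. The tables give no detection calls. Symbols came from GEO's platform annotation, updated through the gene identifier to GRCm38.p6; arrays have no stated genome build, so probe sets are given no coordinates, and only the RefSeq windows carry them.

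Each brain 430 array was centred on the kidney array by the median log2 ratio of probe sets above both medians, which removed -0.84 (430A) and 2.08 (430B). As floor served the higher of both medians, taken after centring. The 100 probe sets on both brain arrays were used once, from 430A. Antisense pairs were used as deposited, with the higher 75th percentile of each pair as floor. The probe set whose percentile, averaged over the tissues, was highest stood for its gene. Likeness was the Euclidean distance of both log2 signals after flooring, over genes of 1 design. All members were named, as were listed genes past 2-fold, a few others and, for 4 members, the 3 nearest genes. With 1 array per group no test was run. The alternatives were other scalings, floors and probe set choices. The calling step was tested on simulated data. Members and lists were chosen with earlier results of these data known. A planned comparison of protein sequences was not made. Python 3.11.15, pandas 2.3.3 and numpy 2.4.6 were used.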

Additional observations from a re-analysis of the deposited data

How the results depend on the processing

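The direction of Slc1a2, Slc1a3 and Slc17a7 towards brain held under all 7 other settings tried for the sense arrays, and the 2-fold call did too, except that of Slc1a2 with the median of its probe sets. Part of this was fixed in advance. With kidney under a floor set by the brain median, a ratio cannot turn towards kidney. It also stayed the same when the brain array was rescaled, at 6.19 for Slc1a2 and 4.01 for Slc17a7. Without a floor, the log2 ratios of the 3 genes were 6.34, 4.91 and 5.35. With the floor at the 75th percentile, 3 member genes were higher in brain in place of 5, the other 2 lying below the floor. There 6 of the listed genes were higher in brain in place of 12: 3 lay below the floor, and Slc38a3, Slc32a1 and Slc7a5 had smaller log2 ratios, of 0.78, 0.58 and 0.02, against the raised floor. On the kidney side, 7 listed genes were higher in place of 10, with Slc25a13, Aldh4a1 and Aldh18a1 falling under 2-fold. With signals as deposited, 2 member genes were higher in kidney in place of none. With the floor at the 90th percentile, 0 member genes had an antisense difference in place of 1. Aldh18a1 turned to 0.40 on the log2 scale without probe sets marked _x_at or _s_at, a setting chosen after seeing the data; the cause was not tested. Over single member genes, 54 ratios kept their call under a changed setting, 3 gained one, 2 fell under 2-fold and 4 had no signal above the floor. Of these 4, Slc1a6 and Slc17a6 at the 75th percentile had been called higher in brain and so lost that call too. Dim signals limit the bounds: Slc1a6 and Slc1a4 lie close to the floor of 430A in brain. No paired analysis was possible because each group had 1 array.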

Other observations

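Of the listed genes, 9 had a reverse probe set, and 1 of these was above the floor. The reverse probe set of Slc25a13, the aspartate-glutamate carrier of mitochondria, read 17.5 in brain and 255.1 in kidney, where it ranked at percentile 94.9 of U74B, and its antisense log2 ratio was -1.37, a bound. The sense log2 ratio of the same gene was -1.40, also a bound towards kidney. With the floor at the 90th percentile the antisense ratio was -0.26, and with the floor at the 75th percentile the sense ratio was -0.10. The reverse probe sets of Pck1, Got2, Slc38a2, Slc38a5, Slc25a18, Gclm, Aldh18a1 and Naalad2 lay below the floor in both tissues; the highest of these readings was 48.9 for Got2 in brain, against 15.3 in kidney.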
